A study of Mus musculus with 4 samples.

Results

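The clustered protocadherins are cell-surface cadherins encoded by neighbouring genes in alpha, beta and gamma clusters on mouse chromosome 18. They were taken as every gene whose symbol begins with Pcdha, Pcdhb or Pcdhg followed by a number, or by a letter and a number. The rule found 57 protein-coding genes among 21900 in the mouse reference, with 14 in the alpha, 22 in the beta and 21 in the gamma cluster, and 1 pseudogene, Pcdhgb8. The deposited table of genes related to differential N6-methyladenosine (m6A) peaks holds 9225 gene IDs, and 19 of them belong to this family.

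The study set m6A on RNA of MIN6 cells transfected with a GR expression vector against that of MIN6 cells transfected with a control vector. MIN6 is an established line from a mouse insulin-producing tumour that stands in for pancreatic beta cells, labelled here as C57BL/6. GR is not spelled out in the labels and is read here as the glucocorticoid receptor, a hormone-activated transcription factor. Both arms were transfected with 10 µg of plasmid and RNA was taken 24 hours later. Each arm had 1 input library and 1 library of RNA fragments pulled down with an anti-m6A antibody, which makes 4 libraries. The promoter of the vectors and any added hormone are not given in the sources used here. The tables compare the arms and hold no value per library, so depth is unknown, no member has a fold change, a direction or a peak position, and no difference has a replicate check. In such bulk RNA, fewer cells with a transcript and less transcript per cell cannot be told apart.

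Clustered protocadherins bind copies of themselves on the opposing cell, and different neurons use different combinations, which gives each neuron a surface identity used in self-avoidance of its branches. In the alpha and gamma clusters each gene has its own promoter and its own large first exon, the variable exon, which encodes the whole extracellular part, the membrane span and a short piece of the cytoplasmic tail. That exon is spliced to small constant exons at the far end of the cluster, which are the same for all genes of the cluster and encode the shared end of the tail. Beta genes have a single coding exon and no constant exons. The last genes of the alpha and gamma clusters are called C-type: their variable exons resemble each other more than those of their neighbours, and many neurons express them steadily, whereas the other variable exons are chosen at random. The sites where m6A sits on these transcripts decide to which gene a peak can be credited. A peak in a variable exon lies on the transcript of 1 family member, and a peak in a constant exon belongs to every alpha or every gamma transcript alike. Variable exons can also lie inside the spans of other genes of the cluster. How the authors credited peaks to genes is not given in the sources used here.

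Of the 57 protein-coding members, 19 (33.3%, exact Clopper-Pearson 95% interval 21.4% to 47.1%) had at least 1 line in the gene table. For all 21900 protein-coding genes the share was 25.2%, which lies inside that interval, so no difference from other genes is read here. The interval is wide and also holds shares well above 25.2%, so it does not show that the shares are equal. The interval covers counting error only, and the members are neighbours with shared exons and not independent draws. By cluster, 7 of 14 alpha genes (50.0%, 23.0% to 77.0%), 8 of 22 beta genes (36.4%, 17.2% to 59.3%) and 4 of 21 gamma genes (19.0%, 5.45% to 41.9%) were listed. All 3 intervals include 25.2%. Chromosome 18 as a whole had 31.7% of its protein-coding genes listed.

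**Figure D1:**
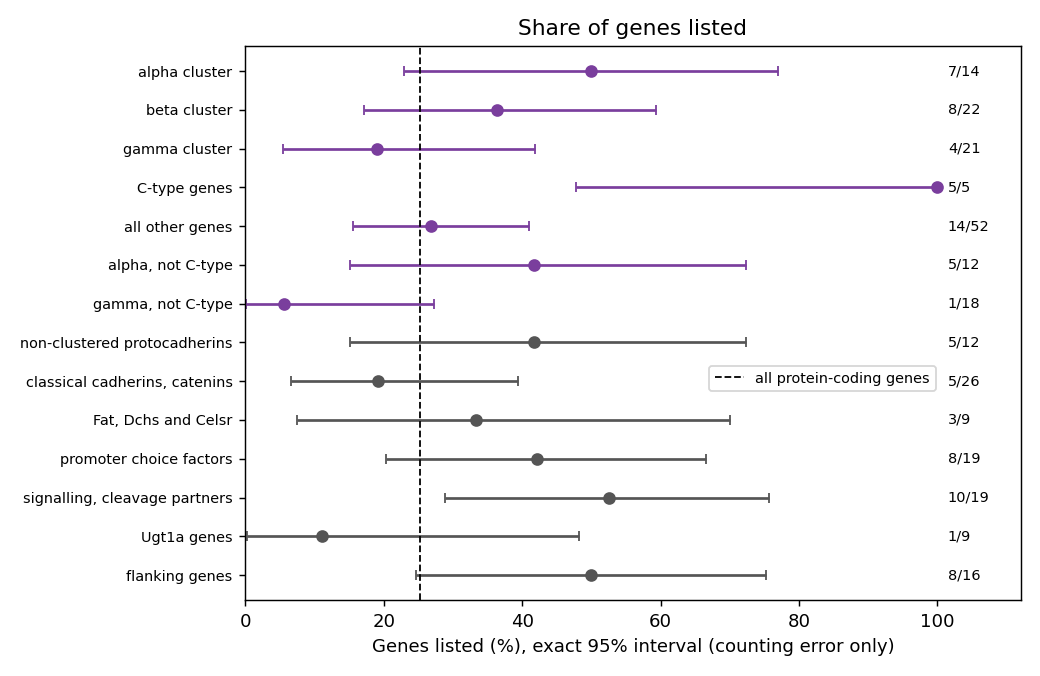
Share of genes with at least 1 line in the gene table (horizontal axis, percent) for groups of clustered protocadherins (purple) and for related gene lists (grey). Bars are exact 95% intervals, and the numbers at the right are listed genes of all genes. The dashed line marks the 25.2% of all protein-coding genes. Of the plotted groups, the C-type genes (5 of 5) and the signalling and cleavage partners (10 of 19) have an interval above the line. Intervals cover counting error only, and C-type genes of a cluster share constant exons, so they are not independent draws.

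The split between C-type and other genes was wider than the split between clusters. All 5 C-type genes, Pcdhac1, Pcdhac2, Pcdhgc3, Pcdhgc4 and Pcdhgc5, were listed (100%, with an exact lower limit of 47.8%). That limit takes the 5 genes as independent draws, which genes with shared constant exons are not, so it is likely too narrow. Of the 52 other members, 14 were listed (26.9%, 15.6% to 41.0%), close to the 25.2% of all genes. Within the clusters that have constant exons, 6 of 30 genes other than C-type were listed (exact interval 7.71% to 38.6%). The gamma cluster showed the widest contrast, with its 3 C-type genes listed. Of its 18 other genes Pcdhga5 was listed and 17 were not (5.56% listed, exact interval 0.141% to 27.3%). None of the 6 coding genes of the gamma B subgroup (Pcdhgb1, Pcdhgb2, Pcdhgb4, Pcdhgb5, Pcdhgb6 and Pcdhgb7) had a line (exact upper limit 45.9%). The intervals of these gamma groups both include the 25.2% of all genes. The difference between C-type and other genes was not tested, and it was noticed with the values in view.

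Listed members stood apart from other listed genes by their number of lines. They held 259 of the 17052 lines (1.52%) with 0.206% of the IDs. The median was 8 lines per listed member, from 2 to 39, against a median of 1 over all 9225 IDs, of which 5127 (55.6%) had a single line. No listed member had a single line. At least 4 lines were found for 18 of the 57 members (31.6%), against 2.47% of all protein-coding genes. Of the 9 IDs with 20 lines or more, 6 were clustered protocadherins, and the other 3 were the gene models Gm10544 (52 lines), BC037039 (47) and Gm20687 (21). The meaning of a line is not given in the sources used here: the lines of a gene are identical, with ID, symbol and protein domains, and the table is sorted by ID. The number of lines is therefore given here as a count of entries, and whether it follows the number of peaks is unknown.

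**Figure D2:**
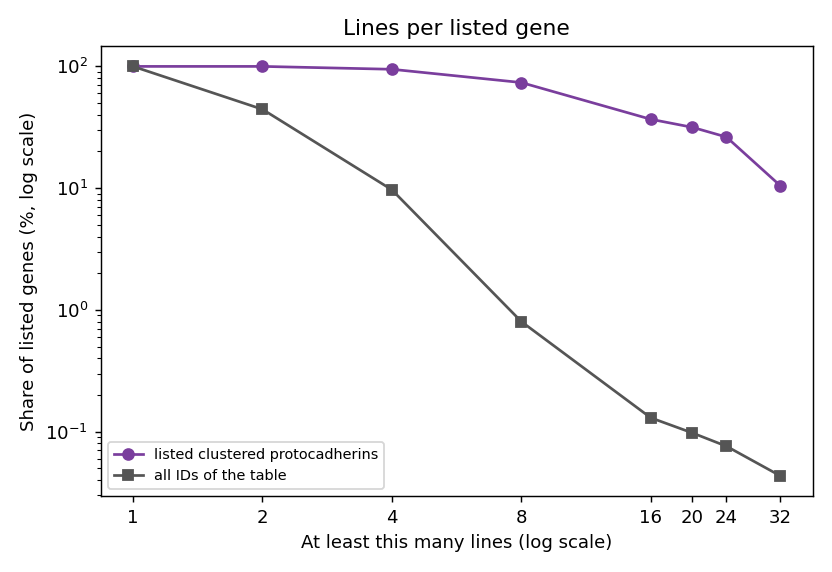
Share of listed genes (vertical axis, percent, log scale) that have at least the number of lines on the horizontal axis (log scale), for the 19 listed clustered protocadherins (circles) and for all 9225 IDs of the table (squares). At 8 or more lines the share was 73.7% of the listed members and 0.802% of all IDs.

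The alpha cluster runs from base 36930285 to base 37188897 of chromosome 18 (GRCm38, the assembly behind mm10). Along it, Pcdha1 had 2 lines, Pcdha2 had 4 and Pcdha3 had 9. Pcdha8, in the middle of the cluster, had 11 lines. Pcdha11 had 39 lines, the highest number in the family and the third highest in the table. The C-type genes at the far end followed with 16 lines for Pcdhac1 and 34 for Pcdhac2, which guides the even spacing of serotonergic axons in the brain. Over these 7 listed genes the number of lines rose toward the constant exons (Spearman's rho 0.893, a description only, since the spans of these genes lie inside each other). Pcdha4, Pcdha5, Pcdha6, Pcdha7, Pcdha9, Pcdha10 and Pcdha12 had no line. These genes lie between the listed ones and were left out of that rho, so it does not describe the cluster as a whole.

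The names of 2 alpha genes limit these counts. The symbol Pcdha11 is paired with 2 gene IDs in the name table, and all 39 lines belong to ENSMUSG00000007440, whereas ENSMUSG00000102206 had none. Whether the first ID is limited to the Pcdha11 exon could not be told from the tables used. Pcdha10 has no ID in the name table, and no line carries its symbol.

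**Figure D3:**
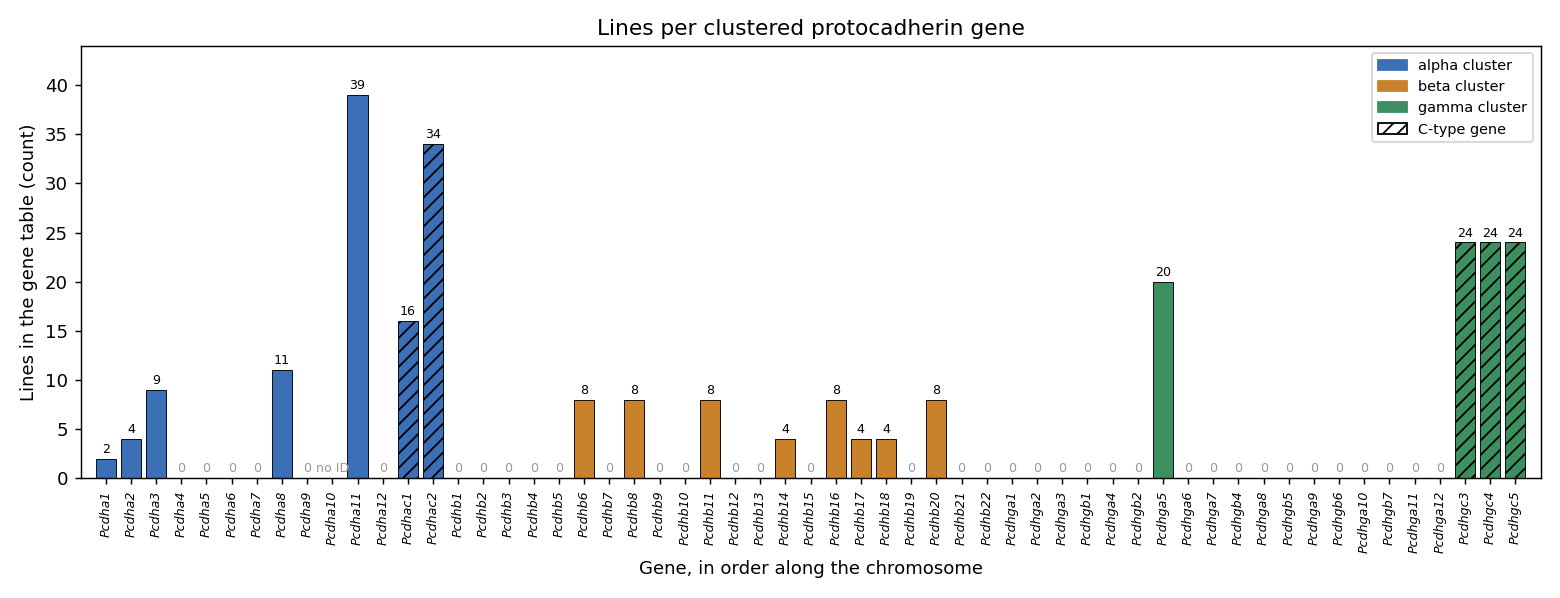
Lines in the gene table (vertical axis, count) for each of the 57 protein-coding clustered protocadherins in their order along the chromosome, coloured by cluster, with C-type genes hatched. The tallest bars are Pcdha11 (39) and Pcdhac2 (34), listed beta genes have 4 or 8 lines, and in the gamma cluster the bars are Pcdhga5 (20) and the 3 C-type genes (24 each).

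The beta cluster, from base 37264998 to base 37521419, gives the simplest reading of gene identity, since its genes do not overlap and share no exon. Pcdhb6, Pcdhb8, Pcdhb11, Pcdhb16 and Pcdhb20 had 8 lines each, and Pcdhb14, Pcdhb17 and Pcdhb18 had 4 each. No other number occurred among the 8 listed beta genes. Pcdhb16, Pcdhb17 and Pcdhb18 are direct neighbours, while Pcdhb1 to Pcdhb5 at the alpha end and Pcdhb21 and Pcdhb22 at the gamma end had no line. The remaining beta genes without a line were Pcdhb7, Pcdhb9, Pcdhb10, Pcdhb12, Pcdhb13, Pcdhb15 and Pcdhb19. Beta genes span 2.3 to 5.3 kb, and of all 2372 protein-coding genes in that range of length 30.7% were listed, near the 36.4% of the beta cluster. The sequences of beta genes are alike, so reads from 1 copy may be placed on another, and how the authors treated such reads is not given in the sources used here.

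The gamma cluster, from base 37661775 to base 37841873, had lines for 4 of its 21 coding genes. Pcdhgc3, Pcdhgc4 and Pcdhgc5 had 24 lines each and Pcdhga5 had 20. Pcdhgc3 inhibits canonical Wnt signalling and promotes dendrite branching, Pcdhgc4 is the isoform that neurons need for survival, and Pcdhgc5 binds synaptic receptors for GABA. The span of Pcdhga5 contains the starts of 14 other coding gamma genes. Its neighbours on both sides, Pcdhgb2 and Pcdhga6, had no line, nor did Pcdhga12, the coding gene next to the C-type genes.

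The shared constant exons bear directly on these counts. In the reference, all 21 coding gamma genes end within 10 bases of each other, and 13 of the 14 alpha genes end at one place too (Pcdha6 extends 1240 bases beyond the earliest end). The span of Pcdha1 contains the starts of the 13 other alpha genes, and the span of Pcdhga1 contains those of the 20 other coding gamma genes. All protein-coding genes were searched for groups of at least 3 whose higher coordinate lies within 10 bases of the next. Strand was not used, so families that share last exons at their lower coordinate would not be found. The search found 3 groups: the alpha cluster, the gamma cluster and the Ugt1a genes. The Ugt1a genes are glucuronidation enzymes on chromosome 1 with the same layout of variable and constant exons. In that Ugt1a group 1 of 7 genes was listed, Ugt1a6a with 6 lines. In the alpha group 7 of 13 were listed. In the gamma group 5 of 24 were, including the gene model Gm37013.

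None of the 3 families with constant exons that this search found was listed as a whole. Of the 35 alpha and gamma genes, all of which carry the constant exons of their cluster, 11 were listed and 24 were not. Lines were thus not given to every gene that carries a constant exon. Whether a peak in a constant exon was credited to some of the genes that carry it was not tested, and the equal 24 lines of the 3 gamma C-type genes cannot be told apart from 1 set of entries repeated under 3 IDs. Whether the 92 lines of the 4 gamma genes and the 115 lines of the 7 alpha genes are independent is therefore unknown. The 52 beta lines do not have this limit from shared exons.

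Gm37013 is a gene model that joins the clusters: in the reference it reaches from base 36952648, at the start of Pcdha4, to the end of the gamma cluster, 889.2 kb. It had 7 lines. Its only protein domain in the table was the C-terminal catenin-binding domain, with no cadherin repeat, and it was not counted as a member.

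Protein domains are given on each line. All 19 listed members carried the cadherin repeat, the N-terminal cadherin domain and the conserved cadherin site. The C-terminal catenin-binding domain was on all 7 alpha and all 4 gamma members and on 0 of 8 beta members, and outside the family it occurred for Gm37013 alone among the 9225 IDs. The cytoplasmic C-terminal domain was on all 8 beta members, on 2 alpha members (Pcdhac1 and Pcdhac2) and on 3 gamma members (Pcdhga5, Pcdhgc3 and Pcdhgc5). The 5 listed alpha genes other than C-type, and Pcdhgc4, lacked it. The entry for protocadherin gamma-C3 was on all 3 gamma C-type genes and not on Pcdhgc3 alone. Of 35 IDs in the table with a cadherin repeat, 19 (54.3%) were clustered protocadherins, and these held 259 of the 296 lines (87.5%). The other 16 had a median of 2 lines and at most 7.

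Related genes were described by lists. The intervals of the cadherin lists given next all include the 25.2% of all protein-coding genes. Non-clustered protocadherins, single genes elsewhere in the genome, had 5 of 12 listed (41.7%, 15.2% to 72.3%). Pcdh17 had 7 lines, Pcdh10 had 4, Pcdh7 and Pcdh11x had 2 each and Pcdh20 had 1, while Pcdh1, Pcdh8, Pcdh9, Pcdh12, Pcdh15, Pcdh18 and Pcdh19 had none. Their share was close to that of the clustered genes and their median of 2 lines was lower than 8. Among classical cadherins and catenins 5 of 26 were listed (19.2%, 6.55% to 39.4%): Cdh8 and Ctnnd1 with 2 lines and Cdh4, Cdh7 and Ctnnb1 with 1. Of the large cadherins, Celsr3 had 5 lines and Celsr2 and Fat1 had 2 each, 3 of 9 in all (33.3%, 7.49% to 70.1%). Cdh1 and Cdh2, the adhesion cadherins of epithelia and of nerve and endocrine cells, had no line.

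The genes that control which protocadherin promoter is used had 8 of 19 listed (42.1%, 20.3% to 66.5%). That interval includes the 25.2% of all protein-coding genes. The insulator protein CTCF and the cohesin ring bring a distant enhancer to the chosen promoter, and DNA methylation silences the others. Of the genes for cohesin, its loader and its release factors, Rad21 and Nipbl had 4 lines each, Smc1a and Wapl had 2, and Smc3 and Pds5a had 1. Dnmt3a, a DNA methyltransferase, had 3 lines and Hells had 1. Ctcf, Stag1, Stag2, Mau2, Pds5b, Smchd1, Dnmt1, Dnmt3b, Setdb1, Wiz and Rest had none.

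Partners that signal from the protocadherin tail or cut it had 10 of 19 listed (52.6%, 28.9% to 75.6%), with a median of 1 line. That interval lies above the 25.2% of all protein-coding genes, a difference that was not tested. Ncstn (2 lines) and Aph1a (1) belong to gamma-secretase, which releases the tail after the protease Adam10 (1 line) has cut the outer part. Of the WAVE complex, which drives actin branching, Wasf1 had 2 lines and Nckap1, Abi1 and Brk1 had 1. Rac1, Fyn and Marcks also had 1 line. Ptk2 and Ptk2b, the adhesion kinases bound by the constant tail, had none, nor did Wasf2, Wasf3, Cyfip1, Cyfip2, Abi2, Psen2 and Psenen.

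Genes beside the clusters had 8 of 16 listed (50.0%, 24.7% to 75.3%), an interval that includes the 25.2% of all protein-coding genes. Taf7, a subunit of the general transcription factor TFIID that lies between the beta and gamma clusters at bases 37640491 to 37644204, had 12 lines, and Slc25a2 next to it had none. Outside the clusters, Dnd1 had 3 lines, Hars2, Slc35a4 and Zmat2 had 2, and Diaph1, Ndufa2 and Wdr55 had 1. Other coding genes within 300000 bases of the clusters, read from the reference and not on this list, were Eif4ebp3 with 5 lines, Rell2 with 3 and Ankhd1 with 2, and Sra1, Apbb3 and E230025N22Rik with none. Neuron markers had 3 of 9 genes listed (33.3%, 7.49% to 70.1%, which includes 25.2%), with 6 lines for Nefl, 3 for Tubb3 and 1 for Snap25. Beta-cell markers had 6 of 8 listed (75.0%, 34.9% to 96.8%), an interval above the 25.2% of all genes. Their lines ranged from 1 for Ins1 to 4 for Mafa, with none for Ins2 and Iapp. A listing is not an expression level, so the cell type could not be checked from levels.

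In the Gene Ontology (GO) table, 85 of 16568 terms listed at least 1 member. In 18 terms all 19 listed members stood together, in 3 more 17 did, and no other term held more than 5. The smallest of the 18 was homophilic cell adhesion, binding between like molecules on facing cells. In the authors' deposited table it has 47 listed genes, of 167 in the background, and these included the 19 members (40.4%, 26.4% to 55.7%). How many of the 167 background genes are family members was not counted. The 40.4% could therefore not be set against the family's share of the whole term, and it describes the term's make-up only. By the same counts of the authors' deposited table, in the parent term, cell-cell adhesion via plasma-membrane adhesion molecules, 19 of 71 were members (26.8%), in calcium ion binding 19 of 157 (12.1%) and in cell-cell adhesion 19 of 193 (9.84%). Among the broadest terms of the authors' deposited table, membrane held 19 members in 2277 listed genes (0.834%). The authors' deposited table gives a p of 1 for all 16568 terms, before and after correction, so its p-values say nothing about these terms.

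**Figure D4:**
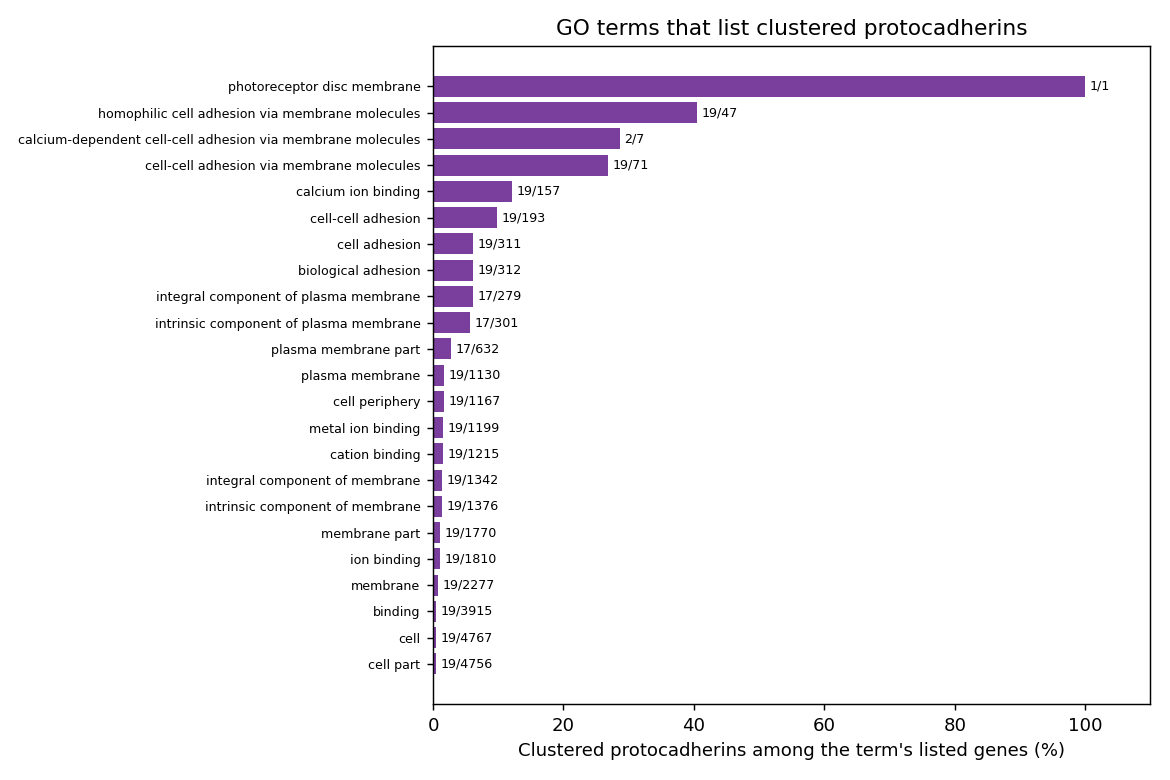
Clustered protocadherins as a share of the listed genes of a GO term (horizontal axis, percent), for the terms that list 17 or 19 of them and for those where they make up at least 20%. Numbers at the bars are members of all listed genes; homophilic adhesion leads the terms that hold all 19 members, with 19 of 47, and the top bar is a term with a single listed gene.

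The share of homophilic adhesion genes that were listed in the authors' deposited table, 28.1% (47 of 167), lay near the 26.0% of background genes that occur in any term of the GO table (5409 distinct IDs of 20770) and below the 48.3% of its deposited totals (10022 of 20770). What the 10022 counts is not given in the sources used here, so the 28.1% could not be placed against 1 background. The 28 listed genes of the term outside the family included Pcdh17 with 7 lines, Celsr3 with 5, and Dsg2, a desmosome cadherin, and Pcdh10 with 4 each. The rest had 1 or 2 lines, among them the nectins Nectin2 and Nectin3 and the synaptic adhesion genes Cadm1 and Nrcam.

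Narrower terms of the authors' deposited table separated the members by annotation, and the counts of listed genes below are from that table. Synapse organization listed Pcdhb16, Pcdhgc3, Pcdhgc4 and Pcdhgc5 among 120 genes (3.33%). Calcium-dependent cell-cell adhesion listed Pcdhb16 and Pcdhgc3 among 7 genes (28.6%). Nervous system development listed Pcdhac2 and Pcdhb16 among 692, and identical protein binding listed Pcdhb6 and Pcdhb8 among 564. Pcdha1 and Pcdha2 shared endoplasmic reticulum, with 539 listed genes. Pcdhb16 occurred in 70 of the 85 terms, among them photoreceptor disc membrane, where it was the 1 gene listed of 2, and ciliary membrane. Pcdhga5 was in 18 terms, the fewest of any member, and it and Pcdhgc4 were the members left out of the plasma membrane part terms that listed 17. In the pathway (KEGG) table, 0 of 290 pathways listed a member. Whether any of these pathways has a family member in its background was not checked, so nothing is read from the 0.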

How the data were processed

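Genes were read from a headerless table with 1 Ensembl gene ID, a symbol and protein domains per line, which the authors deposited for GR against control. BWA 0.7.12 and HOMER 4.9.1 were used on the build mm10, per the submitters' processing notes, which give no role for either. The program and thresholds behind the differential peaks are not given in the sources used here. IDs were named from a gene-name table, which matched 9217 of 9225. Biotypes, spans and coordinates came from RefSeq's GRCm38.p6 table, matched by symbol. A gene was called listed with at least 1 line. The GO table holds gene counts per term and p-values that the authors deposited. Long gene lists had run over onto 63 extra lines, which were attached to their terms, after which all 16568 terms held the deposited number of IDs. The KEGG table's deposited counts of gene IDs were used to search for members.

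No test was run, since each arm had 1 library of each kind and no table gives values per library. Intervals are exact Clopper-Pearson at 95%. 1 gene of a list is not reported here and was left out of its counts. Members and lists were chosen with earlier results of these data known. Named were all members (some only in the figure of lines per gene), most listed genes of the lists, and GO terms with most members or at least 20% members. Unlisted genes of the lists were named in part. Alternatives were deposited symbols, the pseudogene, line minimums, the mean, unlisted genes at 0, term sizes and distinct IDs. Parsing was tested on simulated tables. Calculations ran in Python 3.11.15 with SciPy 1.17.1, and figures were drawn with Matplotlib 3.10.9.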

Additional observations from a re-analysis of the deposited data

How the results depend on the processing

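The share of members listed (33.3%) stayed inside its interval under every setting tried: 33.3% by deposited symbols and with at least 2 lines, 32.8% with the pseudogene, and, among settings added after seeing the data, 33.9% over genes with an ID, 31.6% with at least 4 lines and 26.9% without the C-type genes. Over all protein-coding genes the share was 25.2% with at least 1 line and 2.47% with at least 4 lines. The members' share was thus much further above that of all genes at 4 lines than at 1. The median of 8 lines per listed member was 13.6 as a mean and 0 over all members with unlisted ones at 0. Of the settings added later, this median was 20 without the beta genes, which have few lines each, and 8 without Pcdha11 or without the C-type genes. The share of members in the GO term that lists most of them (40.4%) was the same among terms of 10 to 500 background genes and with distinct IDs, and 0.399% with ties broken toward the largest term, cell, a setting added later. No paired analysis was possible because each arm had 1 library of each kind and no result comes from values per library. With depth unknown, whether genes without a line had enough reads for a peak was not tested.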

Other observations

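Numbers of lines that are multiples of 4 recurred in the beta and gamma clusters, a pattern seen in the data first. Among genes with at least 5 lines, all 5 beta genes (8 lines each) and all 4 gamma genes (20 or 24 lines) had a multiple of 4. In the alpha cluster this held for 1 of 5, Pcdhac1 with 16 lines, and over all IDs of the table outside the family for 28 of 388 (7.22%). An ID with at least 5 but fewer than 8 lines cannot have a multiple of 4. Of all 402 IDs with at least 5 lines, members included, only 74 had 8 or more, among them all 14 members counted here. The 7.22% is therefore not a like-for-like baseline for the members. Of those 74 IDs, 38 had a multiple of 4, and 28 of the 38 lay outside the family. Multiples of 4 were thus not particular to these clusters, and members were not tested against the other IDs. Taf7, between the beta and gamma clusters, had 12 lines.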
